A study of Homo sapiens with 8 samples.

Results

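The 4 RNA libraries of the Hep3B cell line are described here, out of 8 libraries in a study of 2 established human liver cancer lines, Hep3B and Huh7. They were chosen by cell line alone, and cells pretreated with XL413 are set against cells that were not, with 2 libraries on each side. In the pretreated cells, the XL413 library came from cells given the drug for 10 days, and the XL413_sertraline library from cells given it for 10 days and then sertraline for 24 hours. On the other side, the control library carries no drug in its label, and the sertraline library came from cells given sertraline without XL413, for a time that the labels do not state. All 4 groups are the same tumour line, grown in DMEM with 10% serum, and no label used here gives a dose. Nothing in the labels says that any library came from a separate culture, and no treatment was repeated in the line.

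XL413 inhibits CDC7, the kinase that joins DBF4 to phosphorylate the MCM helicase and so starts DNA replication at its origins. By the labels, its purpose in this study was to make cells senescent, that is, to take them out of the cell cycle for good. Senescent cells are known for low levels of division genes, high levels of CDK inhibitors and the release of inflammatory factors, and the RB protein helps to hold the arrest. Hep3B comes from a hepatocellular carcinoma and is reported to lack working RB. Sertraline, an antidepressant, blocks serotonin uptake.

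The libraries held 20275392 reads for XL413 and 30842770 for XL413_sertraline, against 28774946 for control and 29695862 for sertraline, so the XL413 library was the shallowest of the series. The markers matched the label. RB1, which makes the RB protein, stood at 4.77 to 7.19 CPM (CPM is the read count per 1000000 reads, scaled between libraries) in the 4 Hep3B libraries and at 62.2 to 68.1 CPM in the 4 Huh7 libraries. The liver protein genes ALB, APOA2 and APOB had at least 3880 CPM in every Hep3B library. Of 11 fibroblast and stellate cell markers, 2 had 0 reads in all 4 Hep3B libraries, and their summed level was 48.7 and 40.0 CPM in XL413 and XL413_sertraline, against 53.7 and 55.3 CPM in control and sertraline. Endothelial markers summed to 1.16 to 1.26 CPM in the pretreated libraries and to 0.983 to 1.40 CPM in the others. Of 13 immune markers, 2 passed the filter on low counts, and LYZ, which makes lysozyme and is also made by epithelial cells, carried most of their summed level of 136 and 88.5 CPM, against 75.4 and 46.1 CPM. The part of other cell types in the results was not tested. In bulk RNA, fewer cells of a kind and less RNA per cell cannot be told apart.

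XL413 pretreatment changed 2335 of the 15550 genes that passed the filter, which is 15% of them. Of these, 1238 genes rose (7.96% of all tested) and 1097 fell (7.05%), and 339 rose and 237 fell by at least 2-fold. A gene counts as changed where the edgeR quasi-likelihood test, with sertraline as a block, gave a Benjamini-Hochberg adjusted p under 0.05 and both pairs, XL413 over control and XL413_sertraline over sertraline, moved the same way. The pair rule removed 8 of 2343 genes under the threshold. The 2 pairs share no library, and over all genes tested 69.2% moved the same way in both, with a Pearson r of 0.62 across genes, which are not independent replicates. With 1 library for each treatment the test has 1 residual degree of freedom, which measures the departure of the drug pair from a sum of their effects, pooled over genes. Its p-values, and the standard errors given after ± below, therefore do not measure the spread between cultures. Where 1 Hep3B library is left out below, the fit includes the Huh7 libraries. The change then comes from the 1 complete Hep3B pair, and the residual spread comes from Huh7 alone. Scaled by total counts only, the median log2 change of all genes was 0.11, against -0.01 here, and the split was 2247 higher and 606 lower. Just inside the threshold lay FGD4 (adjusted p = 0.04998, higher), and just outside it a clone-named gene below 1 CPM in all 4 libraries.

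**Figure D1:**
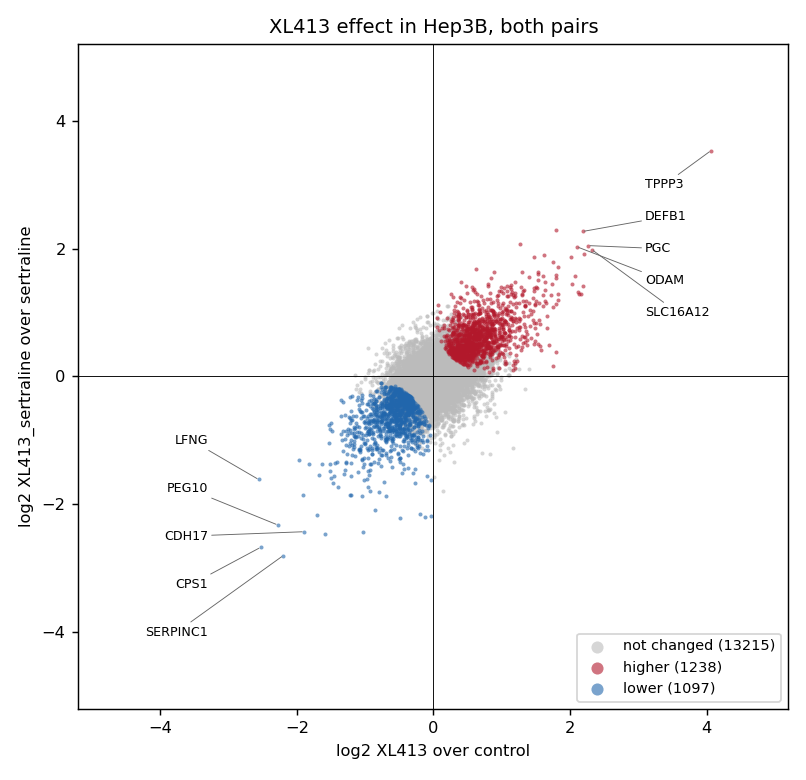
Each point is 1 of 15550 genes, with log2 XL413 over control on the horizontal axis and log2 XL413_sertraline over sertraline on the vertical axis (pseudocount 0.5 CPM). Coloured points are the 1238 genes that rose and the 1097 that fell, which lie at the upper right and lower left, and the named genes are the 5 largest rises and 5 largest falls among those with a mean log2 CPM of at least 1.

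The largest rises were in genes with few reads in the libraries without XL413. TPPP3, a tubulin-binding protein, had 15.3 CPM with XL413 and 8.96 CPM with XL413_sertraline, against 0.43 CPM in control and 0.319 CPM with sertraline, the largest rise of all genes named here (log2 change 5.00 ± 0.26, adjusted p = 8.62e-10). SLC16A12, a creatine and monocarboxylate carrier, had 7.34 and 6.82 CPM in the XL413 and XL413_sertraline libraries, against 1.04 and 1.35 CPM in control and sertraline (log2 change 2.56 ± 0.23, adjusted p = 1.18e-06). PGC, the pepsinogen of the stomach, had 10.8 and 8.62 CPM in the XL413 and XL413_sertraline libraries, against 1.79 and 1.70 CPM in control and sertraline (log2 change 2.46 ± 0.20, adjusted p = 3.61e-07), and CTSE, a gastric aspartic protease, had 5.00 CPM with XL413 and 1.70 CPM with XL413_sertraline, against 1.54 CPM in control and 0.248 CPM with sertraline (1.96, adjusted p = 0.000159). In all of these both pretreated libraries lay above both others.

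Other rises of the same order were in genes of epithelia and of the cell surface. DEFB1, an antimicrobial peptide of epithelia, had 24.1 and 8.93 CPM in the XL413 and XL413_sertraline libraries, against 4.80 and 1.45 CPM in control and sertraline (log2 change 2.43 ± 0.18, adjusted p = 1.28e-07), and ELF5, an epithelial transcription factor, had 9.72 and 5.92 CPM in the XL413 and XL413_sertraline libraries, against 2.33 and 1.45 CPM in control and sertraline (log2 change 2.04 ± 0.20, adjusted p = 3.6e-06). LRP2, the large endocytic receptor of the kidney tubule, had 9.67 and 8.18 CPM in the XL413 and XL413_sertraline libraries, against 1.86 and 2.41 CPM in control and sertraline (log2 change 2.05 ± 0.21, adjusted p = 3.94e-06). The sodium channel gene SCN7A (2.35 on the log2 scale), the secreted ameloblast protein gene ODAM (2.53), the membrane protease gene ADAM28 (2.11), the membrane protein gene TTYH1 (2.10), the formin FHOD3 (1.95) and the collagen COL14A1 (1.84) also rose. COL14A1 had 28.4 and 28.6 CPM in the XL413 and XL413_sertraline libraries, against 8.67 and 7.27 CPM in control and sertraline, so the 2 sides lay far apart. DEFB1 and ODAM also had less in the sertraline library than in control.

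The largest falls included liver enzymes and imprinted fetal genes, which are given with their groups, and genes of the cell surface and of secreted factors. CDH17, the liver-intestine cadherin, had 0.572 and 0.341 CPM in the XL413 and XL413_sertraline libraries, against 3.44 and 4.01 CPM in control and sertraline (log2 change -3.09 ± 0.31, adjusted p = 3.99e-06). LFNG, a glycosyltransferase that modifies Notch receptors, had 1.81 and 1.36 CPM in the XL413 and XL413_sertraline libraries, against 12.9 and 5.18 CPM in control and sertraline (log2 change -2.40 ± 0.23, adjusted p = 2.46e-06), and GAL, the neuropeptide galanin, had 1.57 and 1.02 CPM in the XL413 and XL413_sertraline libraries, against 7.13 and 4.97 CPM in control and sertraline (log2 change -2.23 ± 0.23, adjusted p = 4.06e-06). FST, which makes the activin binder follistatin, had 9.58 CPM with XL413 and 11.3 CPM with XL413_sertraline, against 29.1 CPM in control and 64.9 CPM with sertraline (-2.10, adjusted p = 3.16e-07). In each of these the ranges of the 2 sides did not overlap.

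Further large falls were seen in ETNPPL, which breaks down phosphoethanolamine (-1.75), the exchange factor ARHGEF4 (-1.72), the germline gene GTSF1 (-1.68), CD4 (-2.08) and the kinase-like STKLD1 (-2.25). CD4 had 0.286 CPM with XL413 and 1.15 CPM with XL413_sertraline, against 0.86 CPM in control and 5.21 CPM with sertraline. For CD4 the XL413_sertraline library thus lay above control. STKLD1 had 0.381 CPM with XL413 and 1.52 CPM with XL413_sertraline, against 1.07 CPM in control and 8.02 CPM with sertraline. With a pseudocount of 0.5 CPM its pair ratios were -0.85 without sertraline and -2.08 with it. That pseudocount shrinks ratios of values this low, and most in the pair without sertraline. Fitted without either library of the sertraline pair its change was -1.49, and without control it was -2.38. RASA4CP, a pseudogene whose reads may come from its near-identical relatives, had 0.953 CPM with XL413 and 4.43 CPM with XL413_sertraline, against 0.968 CPM in control and 21.8 CPM with sertraline. Its fall rests on the sertraline pair, since the pair without sertraline differed by -0.03. Without the sertraline or the XL413_sertraline library the falls of CD4 (-1.58), STKLD1 (-1.49) and RASA4CP no longer passed the test.

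**Figure D2:**
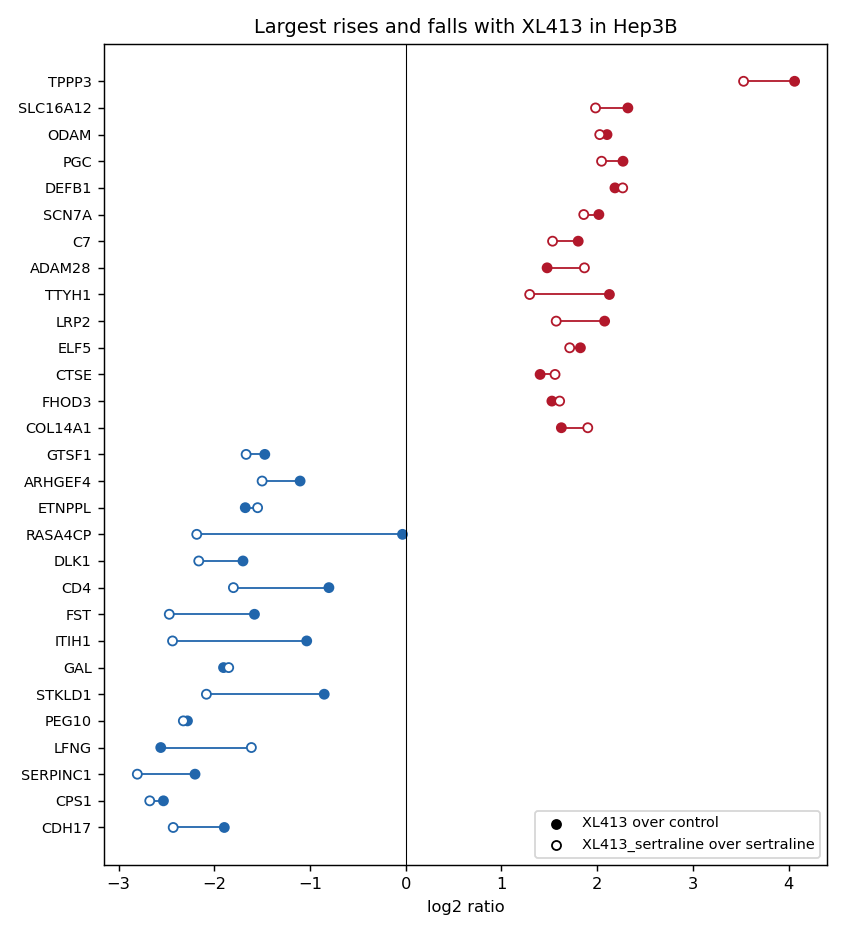
Log2 ratios of the genes named here among the largest rises and falls, with XL413 over control as filled circles and XL413_sertraline over sertraline as open circles (pseudocount 0.5 CPM). Both circles of a gene lie on the same side of 0, and they lie farthest apart for RASA4CP.

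None of the listed genes of CDC7 and origin licensing, DNA synthesis or mitosis fell in pretreated Hep3B by the test. CDC7, the target kinase, had 23.2 and 17.8 CPM in the XL413 and XL413_sertraline libraries, against 25.6 and 14.8 CPM in control and sertraline (log2 change 0.06 ± 0.14, adjusted p = 0.814), and its partner DBF4 had 48.3 and 44.1 CPM in the XL413 and XL413_sertraline libraries, against 47.0 and 38.6 CPM in control and sertraline (log2 change 0.12 ± 0.11, adjusted p = 0.53). Neither passed the test, and for both genes each library with sertraline lay below the library of the same pretreatment without it. Of 23 genes of CDC7 and origin licensing, all of which passed the filter, 0 rose and 0 fell, with a median log2 change of 0.06, against -0.01 over all genes tested. MCM2, a subunit of the helicase that CDC7 phosphorylates, had 397 and 284 CPM in the XL413 and XL413_sertraline libraries, against 338 and 224 CPM in control and sertraline (log2 change 0.29 ± 0.11, adjusted p = 0.0748). Its values were above the matched library without XL413 in both pairs, and the change missed the threshold. At an unadjusted p under 0.05, 1 of the 23 was higher and 0 lower, and DESeq2 called 0. Leaving out any 1 Hep3B library, in a model of all 8 libraries, gave 1 rise.

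Of 26 DNA synthesis genes, 3 rose and 0 fell, which is 11.5% against 7.96% of all genes, with a median of 0.12. UHRF1, which keeps DNA methylation in place behind the fork, had 123 and 81.2 CPM in the XL413 and XL413_sertraline libraries, against 98.7 and 49.6 CPM in control and sertraline (log2 change 0.51 ± 0.11, adjusted p = 0.00516). POLD1, the catalytic subunit of DNA polymerase delta, had 60.1 and 49.5 CPM in the XL413 and XL413_sertraline libraries, against 43.3 and 35.1 CPM in control and sertraline (log2 change 0.48 ± 0.11, adjusted p = 0.00561), and TK1, the thymidine kinase of dividing cells, had 174 and 116 CPM in the XL413 and XL413_sertraline libraries, against 136 and 86.1 CPM in control and sertraline (log2 change 0.39 ± 0.10, adjusted p = 0.0148). In all of them each pretreated library was above its own partner, though the XL413_sertraline library was below control for UHRF1 and TK1. The number of rises was 1 without the sertraline or the XL413_sertraline library, 6 without the control or the XL413 library, and 7 when scaled by total counts only. The calls lost without either library of the sertraline pair were those of UHRF1 (0.31) and TK1 (0.35).

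Of 32 mitosis genes, 0 rose and 0 fell, with a median of 0.02. MKI67, the proliferation marker, had 497 and 383 CPM in the XL413 and XL413_sertraline libraries, against 453 and 306 CPM in control and sertraline (log2 change 0.23 ± 0.11, adjusted p = 0.174). CENPE, a kinetochore motor, had 63.4 and 45.9 CPM in the XL413 and XL413_sertraline libraries, against 53.8 and 34.6 CPM in control and sertraline (log2 change 0.32 ± 0.11, adjusted p = 0.0585), and PRC1, which bundles the midzone microtubules, had 193 and 153 CPM in the XL413 and XL413_sertraline libraries, against 244 and 162 CPM in control and sertraline (log2 change -0.21 ± 0.11, adjusted p = 0.196). LMNB1, the nuclear lamin whose loss marks senescent cells, had 192 and 138 CPM in the XL413 and XL413_sertraline libraries, against 226 and 126 CPM in control and sertraline (log2 change -0.05 ± 0.11, adjusted p = 0.819), with pretreated values inside the range of the others. Of the mitosis list, 2 were higher and 0 lower at an unadjusted p under 0.05, and 3 rose when scaled by total counts only. Without control 2 rose and without XL413 1. Of 20 repair and checkpoint genes, BRCA2, a protein of recombination repair, fell (log2 change -0.42 ± 0.11, adjusted p = 0.0192), and 0 rose. That is 5% lower, against 7.05% of all genes. With DESeq2 or with a minimum of 10 reads in total 0 of that list fell. Scaled by total counts only, 0 of it fell and 1 rose. None of the 14 replication-dependent histone genes left after filtering passed the test, with 0 higher and 1 lower at an unadjusted p under 0.05, among poly(A)-selected RNA, which holds little histone RNA.

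Promoter letters known for these genes are shown to set the 3 classes side by side. The sequences are the 160 bases before the transcript start from RefSeq (GRCh38.p14), 5′ to 3′ on the strand of the gene, with matches in capitals. UHRF1 (chr19:4909341-4909500, plus strand), which rose, and MCM6 (chr2:135876444-135876603, minus strand), which did not pass the test, hold the E2F letters TTTNNCGC, and MKI67 (chr10:128126424-128126583, minus strand) holds the CHR letters TTTGAA of late cell cycle genes.
UHRF1: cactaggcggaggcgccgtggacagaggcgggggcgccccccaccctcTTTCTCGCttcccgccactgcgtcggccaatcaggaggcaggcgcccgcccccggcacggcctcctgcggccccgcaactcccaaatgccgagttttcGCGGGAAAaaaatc
MCM6: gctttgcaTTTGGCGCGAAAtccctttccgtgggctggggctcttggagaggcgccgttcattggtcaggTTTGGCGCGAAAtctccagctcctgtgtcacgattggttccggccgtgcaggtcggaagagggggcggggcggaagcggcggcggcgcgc
MKI67: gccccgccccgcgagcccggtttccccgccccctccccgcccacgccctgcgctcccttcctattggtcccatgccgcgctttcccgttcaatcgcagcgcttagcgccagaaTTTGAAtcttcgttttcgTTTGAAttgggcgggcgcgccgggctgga
In MCM6, matches on the 2 strands overlap. MCM6 was picked for its matches, after its values were seen, and had 202 and 175 CPM in the XL413 and XL413_sertraline libraries, against 226 and 168 CPM in control and sertraline (log2 change -0.05 ± 0.11, adjusted p = 0.798). Both strands of the 300 bases from 250 before to 50 after each start were searched. The E2F letters stood in 11 of 20 licensing promoters (55%), 10 of 22 DNA synthesis promoters (45.5%) and 3 of 27 mitosis promoters (11.1%), against 1884 of all 27305 promoters (6.9%). The CHR letters stood in 20 of 27 mitosis promoters (74.1%), against 15.4% of all. A match is a description of letters, and the class rich in E2F letters holds genes that rose and genes that did not pass the test.

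G1 cyclins moved in opposite directions. CCND1, the cyclin D1 that pairs with CDK4 and CDK6, had 101 and 47.7 CPM in the XL413 and XL413_sertraline libraries, against 229.7 and 69.1 CPM in control and sertraline (log2 change -0.87 ± 0.13, adjusted p = 0.000191), lower in each pair, and CCND3, cyclin D3, had 40.6 and 31.3 CPM in the XL413 and XL413_sertraline libraries, against 31.3 and 19.8 CPM in control and sertraline (log2 change 0.52 ± 0.12, adjusted p = 0.00794), higher in each pair. CCND2, cyclin D2, was near the limit of detection, with 1.33 and 1.55 CPM in the XL413 and XL413_sertraline libraries, against 0.358 and 0.355 CPM in control and sertraline (log2 change 2.01 ± 0.36, adjusted p = 0.000911). The factor genes E2F2 (0.55) rose and E2F5 (-0.51) fell. Of 21 genes of G1 cyclins, E2F and the RB family, 5 rose (23.8%) and 3 fell (14.3%), the median being 0.11. The other rises were CCNE2, cyclin E2 (0.60), and CDK2 (0.41), and the other fall was MYC (-0.41). CCNE2 and CDK2 were named after their values were seen. Without the sertraline or the XL413_sertraline library 2 rose and 4 fell, and without the control or the XL413 library 7 or 6 rose and 2 fell. In the first case the calls of CCND3 (0.37), CCNE2 (0.31) and CDK2 (0.28) were lost. In the second that of MYC was lost (-0.28 without control), and CCND1 was at -0.52 to -0.54.

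CDK inhibitor genes rose in part. CDKN1A, which makes p21, had 10.9 and 20.6 CPM in the XL413 and XL413_sertraline libraries, against 5.16 and 15.6 CPM in control and sertraline (log2 change 0.68 ± 0.17, adjusted p = 0.00914). CDKN1C, which makes p57, had 47.8 and 48.2 CPM in the XL413 and XL413_sertraline libraries, against 23.1 and 32.6 CPM in control and sertraline (log2 change 0.80 ± 0.13, adjusted p = 0.000324), while CDKN2B, which makes p15, had 10.4 and 12.3 CPM in the XL413 and XL413_sertraline libraries, against 13.2 and 18.1 CPM in control and sertraline (log2 change -0.46 ± 0.14, adjusted p = 0.0396). CDKN1A was low in untreated Hep3B and higher with sertraline in both backgrounds, so its XL413 library lay below the sertraline library. DPP4, a surface peptidase used as a senescence marker, had 107 and 91.1 CPM in the XL413 and XL413_sertraline libraries, against 63.5 and 48.7 CPM in control and sertraline (log2 change 0.82 ± 0.11, adjusted p = 4.51e-05), and HMGA1, a chromatin protein, fell (log2 change -0.45 ± 0.11, adjusted p = 0.00991). Of 18 CDK inhibitors and senescence markers, 3 rose (16.7%) and 2 fell (11.1%), with a median of 0.04. The numbers were 2 to 4 rises and 2 falls when any 1 Hep3B library was left out, and scaled by total counts 5 rose and 0 fell. The call of CDKN1A was lost without control (0.41) or XL413 (0.40), and that of CDKN2B without either library of the sertraline pair (-0.34).

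Several genes of secreted inflammatory factors rose. Of 35 factors listed for senescent cells, 26 passed the filter, 9 rose (34.6%, against 7.96% of all genes) and 2 fell (7.69%), with a median of 0.15. ICAM1, the leukocyte adhesion molecule, had 104 and 162 CPM in the XL413 and XL413_sertraline libraries, against 63.8 and 92.5 CPM in control and sertraline (log2 change 0.76 ± 0.10, adjusted p = 8.46e-05), and the cytokine IL32 had 46.4 and 45.8 CPM in the XL413 and XL413_sertraline libraries, against 25.4 and 24.9 CPM in control and sertraline (log2 change 0.87 ± 0.12, adjusted p = 5.64e-05). TIMP2, an inhibitor of matrix proteases, had 69.4 and 77.1 CPM in the XL413 and XL413_sertraline libraries, against 39.5 and 50.4 CPM in control and sertraline (log2 change 0.71 ± 0.11, adjusted p = 0.000235). CXCL5, a neutrophil chemokine, had 127 CPM with XL413 and 70.2 CPM with XL413_sertraline, against 93.9 CPM in control and 24.9 CPM with sertraline (0.95, adjusted p = 0.000803), so most of its difference lay in the sertraline pair. LIF, a cytokine of the IL-6 family, went the other way, with 5.00 and 7.72 CPM in the XL413 and XL413_sertraline libraries, against 14.9 and 14 CPM in control and sertraline (log2 change -1.18 ± 0.17, adjusted p = 0.000178). IL6 itself did not pass the filter. The number of rises was 8 without the control or the XL413 library and 5 without the sertraline or the XL413_sertraline library, and DESeq2 called 3. CXCL5 was at 1.49 to 1.51 in the first case and at 0.43 in the second, and stayed past the threshold in both.

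Of 17 NF-kappaB subunits and feedback genes, 5 rose (29.4%) and 0 fell, with a median of 0.21. TNFAIP3, the A20 protein that ends NF-kappaB signals, had 26 and 40.7 CPM in the XL413 and XL413_sertraline libraries, against 14.4 and 24.3 CPM in control and sertraline (log2 change 0.80 ± 0.12, adjusted p = 0.000233). BIRC3, an inhibitor of apoptosis, had 7.67 and 11.6 CPM in the XL413 and XL413_sertraline libraries, against 5.63 and 4.97 CPM in control and sertraline (log2 change 0.86 ± 0.19, adjusted p = 0.00507), and NFKBIZ (0.44), BCL3 (0.55) and NFKB2 (0.35) rose less. Leaving out the control or the XL413 library left 3 rises. Of 29 interferon-stimulated genes, 22 passed, 7 rose (31.8%) and 2 fell (9.09%). ISG15, the ubiquitin-like modifier, had 13.3 and 15.2 CPM in the XL413 and XL413_sertraline libraries, against 7.85 and 9.61 CPM in control and sertraline (log2 change 0.71 ± 0.15, adjusted p = 0.00313), and IFIT1, a sensor of foreign RNA, 1.52 and 2.11 CPM in the XL413 and XL413_sertraline libraries, against 0.573 and 0.851 CPM in control and sertraline (log2 change 1.34 ± 0.30, adjusted p = 0.00515). OAS3, an RNA sensor, fell (log2 change -0.75 ± 0.17, adjusted p = 0.00515). With DESeq2, 0 of this list changed, and leaving out a library gave 4 or 5 rises. Of 17 MHC class I presentation genes, TAPBP (0.56) and NLRC5 (1.03) rose, which is 11.8%, and 0 fell. By DESeq2 1 of that list rose. Without the control or the XL413 library the calls of BCL3 (0.42 to 0.44) and NFKB2 were lost, and without either library of the sertraline pair those of BIRC3 (0.44), NFKBIZ (0.23) and NLRC5 (1.52).

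All 25 sterol genes tested fell in pretreated Hep3B. Sterol synthesis runs from acetyl-CoA through mevalonate and squalene to cholesterol, and SREBP-2, made from SREBF2, raises its genes and the LDL receptor when cell sterol is low. Of 25 genes of sterol synthesis and uptake, all of which passed the filter, 25 fell and 0 rose, against 7.05% lower over all genes, with a median log2 change of -0.83. The list was drawn up with earlier results of these data known. INSIG1, which holds SREBP in the endoplasmic reticulum, had 27.8 CPM with XL413 and 146 CPM with XL413_sertraline, against 85.2 CPM in control and 375 CPM with sertraline (-1.48, adjusted p = 1.47e-07). Each pretreated library was below its partner, and the libraries with sertraline were far above those without it on either side.

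STARD4, a sterol carrier, had 32.3 and 137 CPM in the XL413 and XL413_sertraline libraries, against 79.8 and 307 CPM in control and sertraline (log2 change -1.23 ± 0.11, adjusted p = 7.48e-07), and SC5D, a late enzyme of the path, 63.0 and 225 CPM in the XL413 and XL413_sertraline libraries, against 138 and 414 CPM in control and sertraline (log2 change -1.003 ± 0.11, adjusted p = 7.5e-06). For INSIG1, STARD4 and SC5D the XL413_sertraline library lay above control, so the 2 sides overlap and the fall is seen only within the pairs. Summed over the list, the level was 4210 CPM with XL413 and 11400 CPM with XL413_sertraline, against 7320 CPM in control and 19600 CPM with sertraline. The median of the list was -0.99 in the pair without sertraline and -0.67 in the pair with it. The number of falls stayed between 22 and 25 under the other scalings, DESeq2 and limma voom. It was 16 where both pairs had to reach 1.5-fold, and 0 with no filter on low counts or no sertraline block. Leaving out any 1 Hep3B library leaves only 1 complete pair. There INSIG1 was at -1.35 to -1.62 and STARD4 at -1.15 to -1.31.

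**Figure D3:**
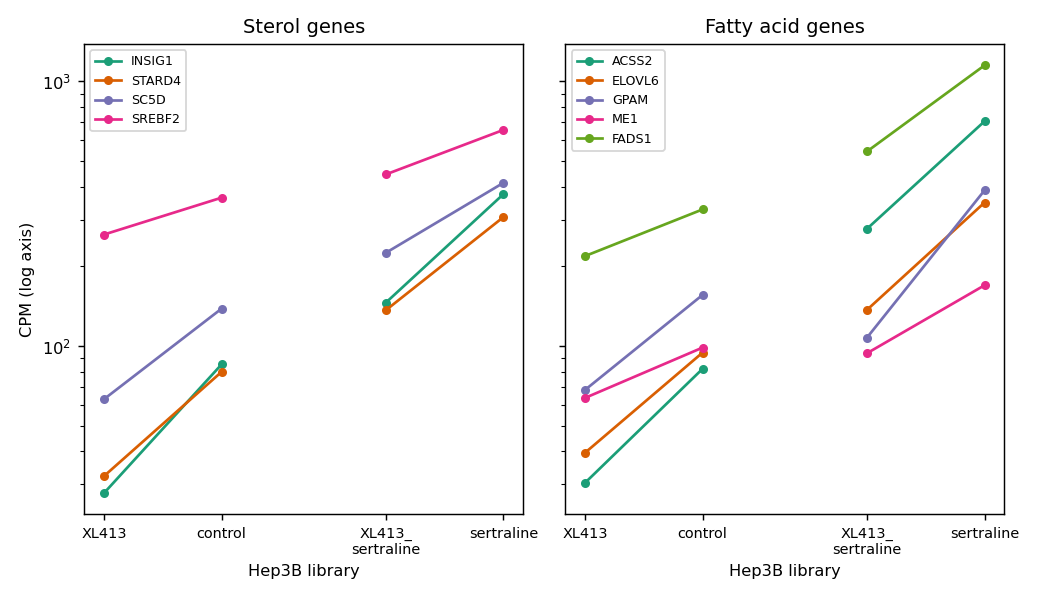
Levels in CPM, on a log axis, of the sterol and fatty acid genes named here in the 4 Hep3B libraries, each line 1 gene, with the XL413 library left of control and XL413_sertraline left of sertraline. Every line climbs to the right within each pair, and each library with sertraline lies above the library of the same pretreatment without it.

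SREBF2 itself, named after its values were seen, had 264 and 445 CPM in the XL413 and XL413_sertraline libraries, against 364 and 656 CPM in control and sertraline (log2 change -0.51 ± 0.11, adjusted p = 0.00367). The sterol regulatory element core, TCACNCCAC, stood in its promoter and is shown as the only match among the 18 promoters of the list that were read (chr22:41832945-41833104, plus strand, the 160 bases before the transcript start, RefSeq GRCh38.p14, match in capitals).
SREBF2: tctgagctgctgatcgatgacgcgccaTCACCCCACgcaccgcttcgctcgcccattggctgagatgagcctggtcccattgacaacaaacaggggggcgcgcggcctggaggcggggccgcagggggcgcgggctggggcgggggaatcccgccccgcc
The core stood in 1 of 18 promoters of the sterol list (5.56%) and in 0 of 16 of the fatty acid list, against 313 of 27305 promoters (1.15%). It also stood in 1 of 20 licensing promoters (5%), and in 0 of 22 DNA synthesis and 0 of 27 mitosis promoters. No match says only that these letters are not in the window of 300 bases.

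Fatty acid synthesis genes fell with them. Of 19 genes, 18 passed the filter, 15 fell (83.3%) and 0 rose, with a median of -0.70. ACSS2, which makes acetyl-CoA from acetate, had 30.4 CPM with XL413 and 278 CPM with XL413_sertraline, against 82.1 CPM in control and 707 CPM with sertraline (-1.39, adjusted p = 2.34e-07). ELOVL6, a fatty acid elongase, had 39.5 and 137 CPM in the XL413 and XL413_sertraline libraries, against 94.5 and 349 CPM in control and sertraline (log2 change -1.30 ± 0.11, adjusted p = 3.33e-07), and GPAM, the first enzyme of glycerolipid synthesis, 68.3 and 108 CPM in the XL413 and XL413_sertraline libraries, against 156 and 388 CPM in control and sertraline (log2 change -1.52 ± 0.13, adjusted p = 7.5e-07). FADS1, a desaturase, fell by less (log2 change -0.83 ± 0.13, adjusted p = 0.000206), as did ME1, which makes NADPH (log2 change -0.74 ± 0.11, adjusted p = 0.000125). The summed level was 4770 CPM with XL413 and 13800 CPM with XL413_sertraline, against 8400 CPM in control and 27100 CPM with sertraline. Between 13 and 16 fell when any 1 Hep3B library was left out. Of 11 LXR targets and sterol efflux genes, 8 passed, 4 fell (50%) and 0 rose. They were ABCA1, the cholesterol exporter, with 73.2 and 58.1 CPM in the XL413 and XL413_sertraline libraries, against 125 and 103 CPM in control and sertraline (log2 change -0.80 ± 0.10, adjusted p = 4.77e-05), APOC1 (-0.78), SMPDL3A (-0.72) and LPCAT3 (-0.34). The call of LPCAT3 was lost without the control or the XL413 library (-0.31 without XL413).

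Genes of triglyceride storage and export changed in both directions. PLIN2, which coats lipid droplets, had 612 and 704 CPM in the XL413 and XL413_sertraline libraries, against 348 and 349 CPM in control and sertraline (log2 change 0.92 ± 0.11, adjusted p = 2.66e-05), and PNPLA2, the triglyceride lipase that works on them, 55.7 and 56.1 CPM in the XL413 and XL413_sertraline libraries, against 26.4 and 34.3 CPM in control and sertraline (log2 change 0.89 ± 0.12, adjusted p = 7.22e-05). PLIN4, another droplet coat, rose as well (log2 change 0.82 ± 0.13, adjusted p = 0.000325). MTTP, which loads fat onto apolipoprotein B for export, had 77.2 and 70.8 CPM in the XL413 and XL413_sertraline libraries, against 147 and 171 CPM in control and sertraline (log2 change -1.11 ± 0.11, adjusted p = 3.94e-06). Of 19 genes of triglyceride storage and export, 3 rose (15.8%) and 6 fell (31.6%). Of 20 fatty acid oxidation and ketogenesis genes, 3 rose (15%) and 2 fell (10%), against 7.96% and 7.05% of all genes. By DESeq2 1 of them rose and 1 fell. PDK4, which shuts off pyruvate oxidation, had 1.10 and 1.52 CPM in the XL413 and XL413_sertraline libraries, against 0.287 and 0.426 CPM in control and sertraline (log2 change 1.86 ± 0.36, adjusted p = 0.00187). EHHADH (-0.50) and HADH (-0.37) fell, and ACAA2 (0.34) rose. The falls of this list were 5 without the control or the XL413 library and 1 without the sertraline or the XL413_sertraline library. In the second case the calls of HADH (-0.31) and ACAA2 (0.31) were lost, and that of ACAA2 also without XL413 (0.36).

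Many genes of secreted liver proteins fell. Of 21 carrier protein and apolipoprotein genes, 11 fell (52.4%) and 2 rose (9.52%), with a median of -0.44. SERPINA1, which makes alpha-1 antitrypsin, had 2341 and 2211 CPM in the XL413 and XL413_sertraline libraries, against 4380 and 6097 CPM in control and sertraline (log2 change -1.18 ± 0.17, adjusted p = 9.58e-05). APOC3, an inhibitor of triglyceride clearance, had 40.8 and 39.2 CPM in the XL413 and XL413_sertraline libraries, against 65.4 and 78.7 CPM in control and sertraline (log2 change -0.84 ± 0.12, adjusted p = 7.64e-05), and AHSG, fetuin A, 1926 and 1817 CPM in the XL413 and XL413_sertraline libraries, against 3429 and 3709 CPM in control and sertraline (log2 change -0.93 ± 0.14, adjusted p = 0.00023). ALB, albumin, had 16180 and 15670 CPM in the XL413 and XL413_sertraline libraries, against 22120 and 20780 CPM in control and sertraline (log2 change -0.43 ± 0.21, adjusted p = 0.177), lower in both pairs but short of the threshold. TTR, the thyroxine carrier, was 1 of the 2 that rose, with 337 and 224 CPM in the XL413 and XL413_sertraline libraries, against 153 and 143 CPM in control and sertraline (log2 change 0.89 ± 0.12, adjusted p = 6.59e-05), and GC, the vitamin D carrier, was the other (0.68, named after its value was seen). Without the sertraline or the XL413_sertraline library, 7 fell.

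Of 26 coagulation genes, 25 passed, 12 fell (48%) and 0 rose, with a median of -0.36. SERPINC1, which makes antithrombin, had 5.53 and 7.10 CPM in the XL413 and XL413_sertraline libraries, against 26.7 and 52.4 CPM in control and sertraline (log2 change -2.61 ± 0.16, adjusted p = 7.14e-09), with pair ratios of -2.20 and -2.81 on the log2 scale. F2, prothrombin, had 192 and 184 CPM in the XL413 and XL413_sertraline libraries, against 349 and 398 CPM in control and sertraline (log2 change -0.99 ± 0.11, adjusted p = 9.02e-06), and FGG, the fibrinogen gamma chain, 554 and 479 CPM in the XL413 and XL413_sertraline libraries, against 992 and 942 CPM in control and sertraline (log2 change -0.91 ± 0.12, adjusted p = 4.02e-05). PLG, plasminogen, was low throughout, with 0.381 and 0.496 CPM in the XL413 and XL413_sertraline libraries, against 1.79 and 2.80 CPM in control and sertraline (log2 change -2.39 ± 0.32, adjusted p = 6.94e-05). SERPINA10, an inhibitor of factor Xa, fell too (-0.81). The number of falls was 11 without the control or the XL413 library and 6 without the sertraline or the XL413_sertraline library, and 2 rose when scaled by total counts only.

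Complement genes split. Of 37 complement and acute phase genes, 30 passed, 9 rose (30%) and 6 fell (20%). C7, a pore component, had 5.86 and 3.01 CPM in the XL413 and XL413_sertraline libraries, against 1.29 and 0.709 CPM in control and sertraline (log2 change 2.14 ± 0.25, adjusted p = 1.61e-05), and C6, its neighbour in the pore, 21.5 and 14.2 CPM in the XL413 and XL413_sertraline libraries, against 7.10 and 7.77 CPM in control and sertraline (log2 change 1.23 ± 0.17, adjusted p = 8.81e-05). C1S, the protease of the first component, had 54.8 and 62.4 CPM in the XL413 and XL413_sertraline libraries, against 29.3 and 35.2 CPM in control and sertraline (log2 change 0.86 ± 0.11, adjusted p = 4.32e-05), and C4BPA, an inhibitor of the pathway, 103 and 97.9 CPM in the XL413 and XL413_sertraline libraries, against 50.3 and 62.9 CPM in control and sertraline (log2 change 0.84 ± 0.12, adjusted p = 8.71e-05). ITIH1, which carries hyaluronan chains, was the largest fall, with 1.52 CPM with XL413 and 3.13 CPM with XL413_sertraline, against 3.58 CPM in control and 19.1 CPM with sertraline (-2.20, adjusted p = 1.07e-05). ITIH1 was at -1.23 without either library of the sertraline pair.

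Urea and amino acid genes were led by CPS1, the first enzyme of the urea cycle, which had 13.2 and 10.3 CPM in the XL413 and XL413_sertraline libraries, against 76.9 and 68.3 CPM in control and sertraline (log2 change -2.64 ± 0.12, adjusted p = 3.76e-10). Its pair ratios were -2.53 and -2.67 on the log2 scale, and the 2 sides were far apart. TDO2, which breaks down tryptophan, was low throughout and the largest rise of the list, with 3.86 and 1.64 CPM in the XL413 and XL413_sertraline libraries, against 0.43 and 0.0709 CPM in control and sertraline (log2 change 3.46 ± 0.36, adjusted p = 5.42e-06). FAH, the last enzyme of tyrosine breakdown, had 27.0 and 25.2 CPM in the XL413 and XL413_sertraline libraries, against 48.8 and 40.0 CPM in control and sertraline (log2 change -0.76 ± 0.12, adjusted p = 0.000237), and the aminotransferase GOT1 149 and 195 CPM in the XL413 and XL413_sertraline libraries, against 240.0 and 289 CPM in control and sertraline (log2 change -0.63 ± 0.10, adjusted p = 0.000478). MAT1A, the liver enzyme for S-adenosylmethionine, rose (log2 change 0.50 ± 0.12, adjusted p = 0.0103). Of 23 genes, 22 passed, 3 rose (13.6%) and 6 fell (27.3%), and without the sertraline or the XL413_sertraline library 3 fell.

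Among liver transcription factors, NR1H4, the bile acid receptor FXR, had 48.1 and 42.0 CPM in the XL413 and XL413_sertraline libraries, against 24.1 and 17.1 CPM in control and sertraline (log2 change 1.15 ± 0.12, adjusted p = 6.46e-06). ONECUT2, a factor of liver and bile duct development, had 84.4 and 112 CPM in the XL413 and XL413_sertraline libraries, against 53.4 and 73.8 CPM in control and sertraline (log2 change 0.63 ± 0.10, adjusted p = 0.000453). GATA6 rose as well (0.62). NR1I3, the xenobiotic receptor CAR, was low throughout and fell, with 0.0953 and 0.031 CPM in the XL413 and XL413_sertraline libraries, against 0.609 and 0.674 CPM in control and sertraline (log2 change -3.41 ± 0.62, adjusted p = 0.00106), and its reads in the pretreated libraries are too few for a precise fold. Of 22 factors, 21 passed, 4 rose (19%) and 3 fell (14.3%), and the falls were 5 without the control or the XL413 library and 1 without the sertraline or the XL413_sertraline library. HNF4A, the master factor of the hepatocyte, had 328 and 310.0 CPM in the XL413 and XL413_sertraline libraries, against 359.5 and 391 CPM in control and sertraline (log2 change -0.23 ± 0.11, adjusted p = 0.16) and did not pass, and was named after its values were seen.

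Of 34 cytochrome P450 and conjugation genes, 24 passed, 8 rose (33.3%) and 2 fell (8.33%). SULT1E1, the oestrogen sulfotransferase, had 8.15 and 3.75 CPM in the XL413 and XL413_sertraline libraries, against 2.76 and 1.70 CPM in control and sertraline (log2 change 1.38 ± 0.21, adjusted p = 0.000236), and CYP2E1, an ethanol-oxidising enzyme, 1.19 and 1.95 CPM in the XL413 and XL413_sertraline libraries, against 0.323 and 0.603 CPM in control and sertraline (log2 change 1.75 ± 0.34, adjusted p = 0.0016). CYP3A7, the fetal liver enzyme, had 5.19 and 11.2 CPM in the XL413 and XL413_sertraline libraries, against 1.86 and 7.95 CPM in control and sertraline (log2 change 0.84 ± 0.21, adjusted p = 0.0111), though its sequence is close to other CYP3A genes. CYP4F2, a vitamin K and fatty acid hydroxylase, fell, with 0.143 CPM with XL413 and 0.248 CPM with XL413_sertraline, against 0.394 CPM in control and 2.94 CPM with sertraline (-3.16, adjusted p = 8.71e-05). DESeq2 called 1 rise in this list, 1 to 3 fell when a Hep3B library was left out (1 without XL413_sertraline), and most of its members were under 10 CPM. The fall of CYP4F2 was not past the threshold without either library of the sertraline pair (-1.44), and CYP3A7 ranged between 0.49 and 1.47.

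Oncofetal genes fell where they changed. PEG10, an imprinted gene active in placenta and liver tumours, had 192 and 111 CPM in the XL413 and XL413_sertraline libraries, against 915 and 555 CPM in control and sertraline (log2 change -2.29 ± 0.11, adjusted p = 6.02e-10), with pair ratios of -2.28 and -2.32 on the log2 scale. DLK1, a fetal liver surface protein, had 87.5 and 101 CPM in the XL413 and XL413_sertraline libraries, against 280.0 and 453 CPM in control and sertraline (log2 change -1.92 ± 0.12, adjusted p = 1.76e-08), and PEG3 44.3 and 53.8 CPM in the XL413 and XL413_sertraline libraries, against 68.5 and 93.9 CPM in control and sertraline (log2 change -0.72 ± 0.11, adjusted p = 0.000203). AFP, the alpha-fetoprotein used as a tumour marker, had 1015 and 730.3 CPM in the XL413 and XL413_sertraline libraries, against 1270 and 1067 CPM in control and sertraline (log2 change -0.43 ± 0.12, adjusted p = 0.0224). Its call was lost without each of the 4 Hep3B libraries in turn (-0.33 to -0.55), in the model of all 8 libraries, when scaled by total counts, and with a minimum of 10 reads in total. Of 15 genes, 6 fell (40%) and 0 rose. The number was 3 without control and 4 without XL413. Of 16 keratin and bile duct or progenitor markers that passed, 5 rose (31.2%) and 1 fell (6.25%). The progenitor gene PROM1 had 335 and 227 CPM in the XL413 and XL413_sertraline libraries, against 239 and 116 CPM in control and sertraline (log2 change 0.72 ± 0.12, adjusted p = 0.000419), the cadherin CDH6 rose (0.81), and KRT18, a keratin of hepatocytes, fell (-0.41). Without XL413_sertraline 3 rose and 2 fell, without sertraline 2 fell, and without control or XL413 0 fell, KRT18 being at -0.27 to -0.29. PROM1 was no longer past the threshold without XL413_sertraline (0.48). Of 8 cholangiocyte markers, CFTR (1.74), KRT7 (1.55) and ANXA4 (0.40) rose (37.5%) and 0 fell, CFTR and KRT7 with at most 1.53 CPM in any library. Without the control or the XL413 library 1 rose, the calls of CFTR (1.52 without control) and KRT7 (1.48 to 1.49) being lost. ANXA4 was at 0.24 and its call was lost without the sertraline or the XL413_sertraline library, where 2 rose. It was also lost with DESeq2 and with DESeq2 size factors in edgeR.

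**Figure D4:**
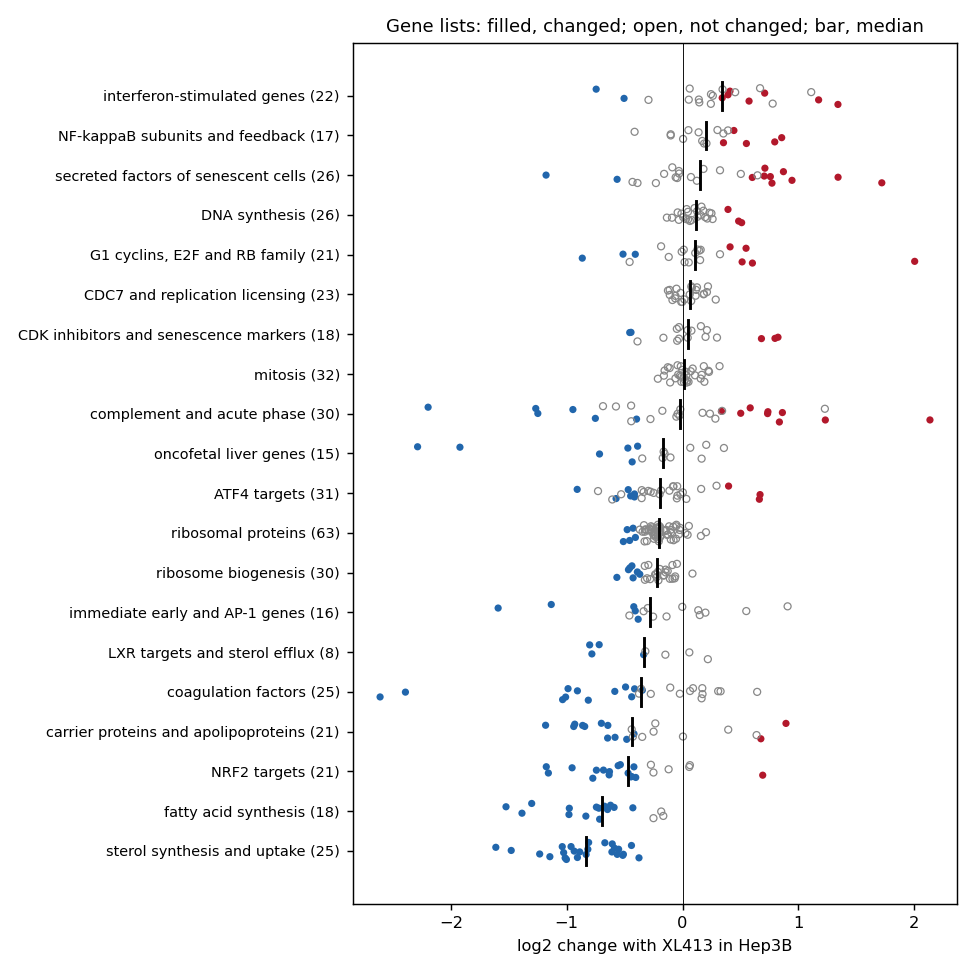
Log2 change with XL413 in Hep3B of every member tested, for 20 gene lists from the lowest median at the bottom to the highest at the top, with changed members filled and the median as a bar. All 25 sterol genes lie left of 0 and are filled, and no member of the licensing or mitosis lists is filled.

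Most genes on the list of NRF2 targets, which defend the cell against oxidants, fell. Of 22 genes, 21 passed, 15 fell (71.4%) and 1 rose (4.76%), with a median of -0.47. NQO1, the quinone reductase, had 169.9 and 198 CPM in the XL413 and XL413_sertraline libraries, against 344 and 488 CPM in control and sertraline (log2 change -1.16 ± 0.11, adjusted p = 2.36e-06), and GCLC, which makes the first step to glutathione, 70.8 and 86.5 CPM in the XL413 and XL413_sertraline libraries, against 112 and 204 CPM in control and sertraline (log2 change -0.95 ± 0.12, adjusted p = 4.82e-05). TXNRD1, thioredoxin reductase, had 221 and 278 CPM in the XL413 and XL413_sertraline libraries, against 338 and 468 CPM in control and sertraline (log2 change -0.68 ± 0.11, adjusted p = 0.000283). AKR1C2 fell (-0.78), and its reads are hard to tell from those of its close paralogue AKR1C1. The 1 rise was HMOX1, heme oxygenase (log2 change 0.69 ± 0.12, adjusted p = 0.000803, named after its value was seen). With 1 Hep3B library left out, 9 to 14 fell, the fewest without the sertraline or the XL413_sertraline library.

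Of 31 ATF4 targets, 3 rose and 6 fell (19.4%). TRIB3, a pseudokinase of the stress response, had 99.98 CPM with XL413 and 359 CPM with XL413_sertraline, against 136 CPM in control and 584 CPM with sertraline (-0.57, adjusted p = 0.00162), and PCK2, the mitochondrial PEP carboxykinase, 43.5 CPM with XL413 and 73.8 CPM with XL413_sertraline, against 52.3 CPM in control and 209.8 CPM with sertraline (-0.91, adjusted p = 0.00243). NUPR1, a stress-induced nuclear protein, rose, with 183 CPM with XL413 and 269 CPM with XL413_sertraline, against 92.0 CPM in control and 211 CPM with sertraline (0.67, adjusted p = 0.00164). These counts moved with the pair used: 14 fell without the control or the XL413 library, which leaves the sertraline pair, and 1 fell without the sertraline or the XL413_sertraline library, where 6 rose. In the first case PCK2 was at -1.49 to -1.51 and NUPR1 at 0.35 to 0.37, and in the second the call of PCK2 was lost (-0.27). The reverse held for ribosome biogenesis, where 7 of 30 fell (23.3%) and 0 rose, with 0 falls without control, 1 without XL413, and 15 without either library of the sertraline pair. NPM1, nucleophosmin, had 860.1 and 729 CPM in the XL413 and XL413_sertraline libraries, against 1340 and 1026 CPM in control and sertraline (log2 change -0.57 ± 0.12, adjusted p = 0.00354), and PES1 137 and 112 CPM in the XL413 and XL413_sertraline libraries, against 193 and 136 CPM in control and sertraline (log2 change -0.39 ± 0.10, adjusted p = 0.0176). Their calls were lost without control (-0.48 and -0.27), and that of PES1 also without XL413 (-0.29). Of 63 ribosomal protein genes, 5 fell (7.94%) and 0 rose, near the background of 7.05%, while 52 were below 0 in both pairs. The falls were 8 without XL413 and 2 without the sertraline or the XL413_sertraline library.

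Immediate early genes fell where they changed. EGR1, a growth factor response gene, had 21.2 and 21.3 CPM in the XL413 and XL413_sertraline libraries, against 74.3 and 55.5 CPM in control and sertraline (log2 change -1.59 ± 0.12, adjusted p = 2.34e-07), and FOS 1.24 and 1.80 CPM in the XL413 and XL413_sertraline libraries, against 3.51 and 3.30 CPM in control and sertraline (log2 change -1.13 ± 0.25, adjusted p = 0.00429). MYC, which is also in the cyclin list, had 155 and 195 CPM in the XL413 and XL413_sertraline libraries, against 224 and 239 CPM in control and sertraline (log2 change -0.41 ± 0.11, adjusted p = 0.0147). Its call was lost without the control or the XL413 library (-0.28 without control). Of 16 such genes that passed, 5 fell (31.2%) and 0 rose, and 5 fell whichever Hep3B library was left out, against 2 with DESeq2. Among 15 MAP kinase feedback genes that passed, 4 fell (26.7%) and 2 rose (13.3%). ETV4 had 16.5 and 12.4 CPM in the XL413 and XL413_sertraline libraries, against 33.2 and 25.9 CPM in control and sertraline (log2 change -1.04 ± 0.13, adjusted p = 2.66e-05), and SPRY4, an inhibitor of the pathway, 13 and 8.62 CPM in the XL413 and XL413_sertraline libraries, against 29.7 and 14.1 CPM in control and sertraline (log2 change -0.96 ± 0.15, adjusted p = 0.000255). In that list 8 fell without the sertraline or the XL413_sertraline library, and 1 rose without the control or the XL413 library.

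In smaller numbers, genes of matrix and low oxygen changed in both directions, with more rises than falls. Of 35 matrix and integrin genes that passed, 5 rose (14.3%) and 2 fell (5.71%), among them THBS1, thrombospondin, with 895 and 763 CPM in the XL413 and XL413_sertraline libraries, against 599 and 386 CPM in control and sertraline (log2 change 0.78 ± 0.12, adjusted p = 0.000294), and the collagen COL12A1 (2.21), while LUM, lumican, fell (-1.02). LUM was at -0.64 without either library of the sertraline pair. LUM is also a fibroblast marker, whose list is given above. Of 20 hypoxia-inducible genes, 5 rose (25%) and 2 fell (10%), with a median of 0.08. NDRG1, a stress protein, had 101 and 145 CPM in the XL413 and XL413_sertraline libraries, against 31.1 and 74.3 CPM in control and sertraline (log2 change 1.32 ± 0.14, adjusted p = 5.06e-06), and CA9, carbonic anhydrase 9, 3.62 and 3.35 CPM in the XL413 and XL413_sertraline libraries, against 1.54 and 1.03 CPM in control and sertraline (log2 change 1.45 ± 0.25, adjusted p = 0.000619). TNFRSF19, a WNT target, had 39.1 and 21.5 CPM in the XL413 and XL413_sertraline libraries, against 16.4 and 7.34 CPM in control and sertraline (log2 change 1.39 ± 0.14, adjusted p = 2.77e-06), and was the 1 rise of 11 WNT targets that passed, beside 2 falls. The falls among WNT targets were 4 without the control or the XL413 library and 3 without the sertraline or the XL413_sertraline library, with 1 rise throughout.

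The other lists are given by their counts, beside 7.96% of all genes that rose and 7.05% that fell. Of 13 mitochondrially encoded genes, 4 fell (30.8%) and 0 rose, and 0 fell without the sertraline or the XL413_sertraline library. Of 33 nuclear-encoded respiratory chain genes 1 fell (3.03%). Of 18 glycolysis genes that passed 1 rose (5.56%) and 3 fell (16.7%), and without the control or the XL413 library 3 rose and 4 fell. Of 22 YAP and TEAD targets that passed 2 rose (9.09%) and 1 fell (4.55%), of 20 actin and SRF targets 1 rose (5%) and 2 fell (10%), and of 22 TGF-beta pathway genes 3 rose (13.6%) and 2 fell (9.09%). Of 20 chaperones of the endoplasmic reticulum 2 fell (10%), of 16 cytosolic heat shock genes 1 rose (6.25%) and 3 fell (18.8%), and of 38 lysosomal genes 3 rose and 3 fell (7.89% each). Without the sertraline or the XL413_sertraline library, 7 lysosomal genes rose and 1 fell, and 6 or 5 YAP and TEAD targets fell. Without control 1 gene of the TGF-beta list rose. None of the 4 metallothionein genes left after filtering passed the test, with 0 higher and 1 lower at an unadjusted p under 0.05.

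Some of these counts depended on the scaling and the test. Scaled by total counts only, the falls numbered 10 among NRF2 targets, 3 each among oncofetal genes and amino acid and urea genes, 2 each among immediate early genes, ATF4 targets and ribosomal protein genes, and 1 each among ribosome biogenesis and mitochondrially encoded genes. Under that scaling 12 lysosomal genes, 8 NF-kappaB genes, 8 matrix genes and 6 MHC class I genes rose. By DESeq2 the rises numbered 0 among G1 genes, cholangiocyte markers and MAP kinase feedback genes, 1 each among DNA synthesis, NF-kappaB and lysosomal genes, and 2 among hypoxia-inducible genes and the keratin and progenitor markers. The falls by DESeq2 were 8 each among carrier protein and coagulation genes, 4 among complement and oncofetal genes, 3 among amino acid and urea genes and ATF4 targets, and 2 among ribosome biogenesis genes.

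The size of the XL413 difference was unequal in the 2 pairs for some genes. Among the 2335 changed genes, 1201 had the larger difference without sertraline and 1134 with it, and in 31 the pairs differed by more than 1 on the log2 scale. These are values with no test, since each treatment had 1 library. The labels state the time of sertraline for XL413_sertraline but not for the sertraline library. In that pair a difference in sertraline exposure and the XL413 effect cannot be told apart. IGFBP1, a hormone-regulated liver protein chosen here after its values were seen, had 6.81 CPM with XL413 and 30.4 CPM with XL413_sertraline, against 7.71 CPM in control and 137 CPM with sertraline, with ratios of -0.19 and -2.16. BMF, a cell death gene chosen in the same way, had 104 CPM with XL413 and 109 CPM with XL413_sertraline, against 29.8 CPM in control and 97.2 CPM with sertraline, with ratios of 1.75 and 0.16. In BMF the control library stood apart and the other 3 lay together. The call of IGFBP1 was lost without either library of the sertraline pair (-0.18), and that of BMF without control (0.18) or XL413 (0.16).

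The response of Hep3B was set against that of Huh7 in a model of all 8 libraries with drug effects for each line. The difference between lines passed an adjusted p of 0.05 in 1437 of 16972 genes (8.47%). The signed change was higher in Hep3B for 633 (3.73%) and lower for 804 (4.74%), and a higher signed change covers rises that are larger as well as falls that are smaller. The test has 2 residual degrees of freedom of the same kind as above. Its count fell to 175 without the Huh7_sertraline library, 209 without Huh7_XL413_sertraline, 401 without Huh7_control and 450 without Huh7_XL413, and was 1720 to 1871 without a Hep3B library, so the numbers rest on single libraries.

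Replication genes differed between the lines. MKI67 had a log2 change of 0.23 in Hep3B and -0.53 in Huh7, a difference of 0.76 ± 0.14 (adjusted p = 0.00298). MCM2 had a log2 change of 0.29 in Hep3B and -0.43 in Huh7 (difference 0.71, adjusted p = 0.00525), and UHRF1 one of 0.51 in Hep3B and -0.71 in Huh7 (difference 1.22, adjusted p = 0.000191). LMNB1 had a log2 change of -0.05 in Hep3B and -0.58 in Huh7 (difference 0.53, adjusted p = 0.0317). Of 26 DNA synthesis genes 10 had a higher signed change in Hep3B and 0 a lower one, and of 23 licensing genes 3 and 0, and of 32 mitosis genes 2 and 0, against 3.73% and 4.74% of all genes. The list medians were 0.11, 0.06 and 0.02 in Hep3B, against -0.29, -0.30 and -0.20 in Huh7. CDKN1A rose in Hep3B by 0.68 and stood at 1.20 in Huh7, and that difference missed the threshold (-0.52, adjusted p = 0.23).

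NRF2 targets differed as well: 11 of 21 had a lower signed change in Hep3B and 0 a higher one. NQO1 had a log2 change of -1.16 in Hep3B and 0.24 in Huh7 (difference -1.40, adjusted p = 2.05e-05), and GPX2, a glutathione peroxidase, one of -0.28 in Hep3B and 2.04 in Huh7 (difference -2.31, adjusted p = 5.54e-07), the smallest p among genes tested in both models. Of 16 immediate early genes 9 had a lower signed change in Hep3B by this test, with EGR1 at -1.59 in Hep3B and -0.03 in Huh7 (difference -1.56, adjusted p = 3.91e-05). Of 27 secreted factors tested 9 had a lower signed change in Hep3B, and of 17 MHC class I genes 6, and 0 a higher one in either list. The median change of the secreted factors was 0.12 in Hep3B and 0.66 in Huh7. That of the MHC class I genes was 0.115 in Hep3B and 1.30 in Huh7. Over all genes, 4.74% had a lower signed change in Hep3B and 3.73% a higher one. For sterol genes, 6 of 25 had the larger fall in Hep3B and 0 in Huh7, with STARD4 at -1.24 in Hep3B and -0.35 in Huh7 (difference -0.89, adjusted p = 0.000754).

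**Figure D5:**
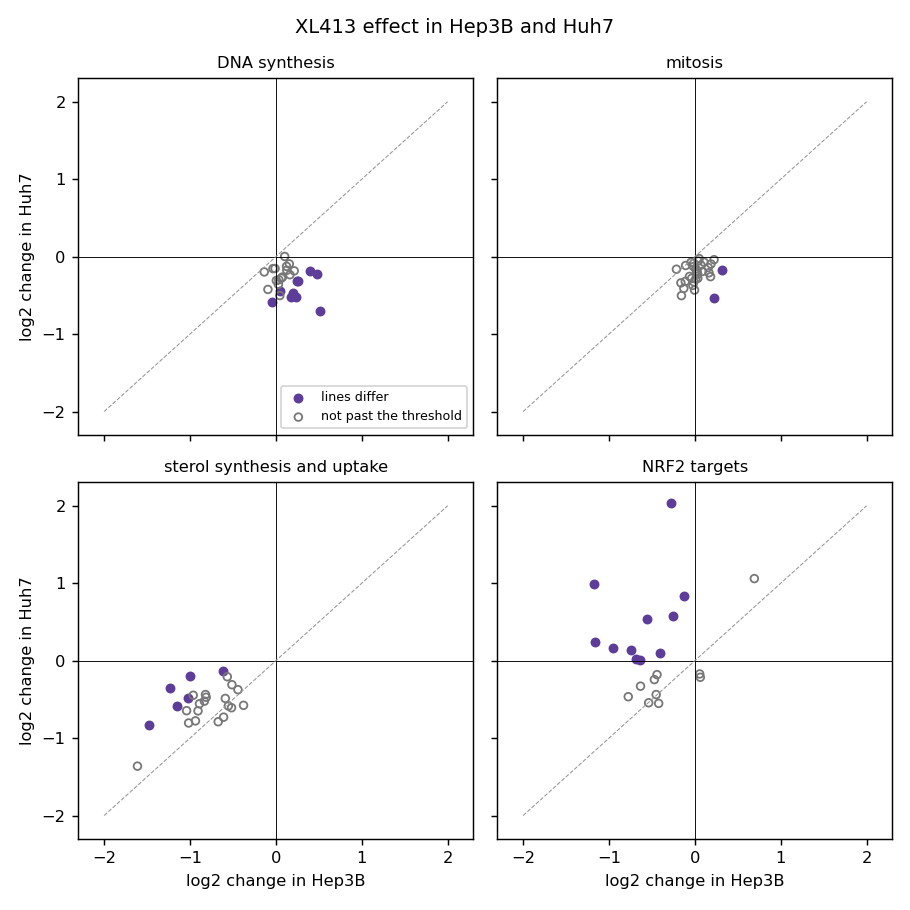
Log2 change with XL413 in Hep3B (horizontal) and Huh7 (vertical) from the model of all 8 libraries, for the members of 4 gene lists, with filled points where the difference between lines passed an adjusted p of 0.05. The 25 sterol genes lie below 0 in both lines, the DNA synthesis genes have medians of 0.11 in Hep3B and -0.29 in Huh7, and the NRF2 targets have medians of -0.47 in Hep3B and 0.02 in Huh7.

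By the smallest p, the differences with Hep3B above were in THBS4, BGN, NR1H4, AUTS2 and PKI55. NR1H4 had a log2 change of 1.15 in Hep3B and -0.85 in Huh7 (difference 1.99, adjusted p = 3.04e-06), values of opposite sign. BGN, the matrix proteoglycan biglycan, had a log2 change of 0.96 in Hep3B and -0.77 in Huh7 (difference 1.73, adjusted p = 7.33e-06), and AUTS2, a regulator of transcription, one of 0.75 in Hep3B and -1.24 in Huh7 (difference 1.99, adjusted p = 1.24e-05). THBS4 differed by 1.86 (adjusted p = 3.04e-06) and PKI55 by 1.76 (adjusted p = 7.33e-06). With Hep3B below, besides GPX2, were TXNIP, an inhibitor of thioredoxin, at 0.05 in Hep3B and 2.10 in Huh7 (difference -2.05, adjusted p = 7.23e-06), and IGSF1 (difference -1.80, adjusted p = 3.04e-06). PEG10 (-1.82, adjusted p = 7.33e-06) and GTSF1 (-1.89, adjusted p = 7.33e-06) fell in Hep3B and differed in the same direction.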

How the data were processed

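The members are the 4 Hep3B libraries, and the members and the 48 gene lists were chosen with earlier results of these data known. The table deposited by the authors holds 1 column of raw read counts per library, by Ensembl gene. Per the submitters' processing notes, HISAT2 and HTSeq were used, with GRCh38 (hg38) as the genome. Not given in the sources used here are versions, the annotation release and the strand setting. Genes that overlap, and close paralogues, may share reads. RNA was poly(A)-selected and libraries were stranded, per the labels. The libraries held 20275392 to 30842770 reads, and the table had 0 columns of other samples.

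In edgeR 4.0.16 (R 4.3.3), filterByExpr (minimum count 10, minimum total 15) kept 15550 of 31710 genes and removed 16160. Counts were scaled by TMM, and XL413 was tested with sertraline as a block by the quasi-likelihood F test with Benjamini-Hochberg adjustment over all genes tested. Pair ratios used a pseudocount of 0.5 CPM. A standard error is the size of the log2 change divided by the square root of F. The line difference came from a model of all 8 libraries with drug effects for each line. Alternatives used DESeq2 1.42.0, limma 3.58.1 voom, other scalings, filters, thresholds and libraries left out. The steps were tested on simulated data. Figures were drawn with matplotlib 3.10.9.

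Genes were named by rule: the 15 largest rises and the 15 largest falls with a mean log2 CPM of at least 1, the 5 smallest p of each list, the 5 smallest p each way for the line difference, the genes at the threshold and 10 fixed markers. Some genes of this rule, and 1 list, are not reported here. Others are said to be named after their values were seen.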

Additional observations from a re-analysis of the deposited data

Results flagged for a closer look

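Of the 158 genes named here and tested between the lines, 77 differed in their XL413 change by the edgeR quasi-likelihood test of the line by XL413 term, at a Benjamini-Hochberg adjusted p under 0.05. The signed change was higher in Hep3B for 30 and lower for 47. These genes were named for their changes in Hep3B or for the line difference itself, so their number is a description. Each value in brackets is the log2 change in Hep3B minus that in Huh7. Without a Huh7 library the test takes its residual spread from Hep3B alone, and many calls were lost there. Of 78 line differences followed gene by gene, 50 were no longer past the threshold without Huh7_sertraline, 47 without Huh7_XL413_sertraline, 35 without Huh7_control and 34 without Huh7_XL413.

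Genes of the cell cycle and DNA replication were above in Hep3B, namely UHRF1 (1.22), E2F2 (0.9), MKI67 (0.76), MCM2 (0.71), POLD1 (0.7), TK1 (0.58), CDK2 (0.58), LMNB1 (0.53), CENPE (0.49) and MCM6 (0.48). Below in Hep3B in the same groups were CDKN2B (-1.21), CCND1 (-0.6) and RB1 (-0.57). Most of the lipid genes that differed were below in Hep3B, among them the sterol genes STARD4 (-0.89), SC5D (-0.8) and INSIG1 (-0.65), and the genes of acetate use, sterol efflux and fat export MTTP (-1.02), ME1 (-0.88), SMPDL3A (-0.82), ACSS2 (-0.52) and ABCA1 (-0.49). The droplet coat gene PLIN4 was above in Hep3B (1.13). ELOVL6, GPAM and FADS1 did not pass the test between the lines. Oxidant defence genes below in Hep3B were GPX2 (-2.31), NQO1 (-1.4), GCLC (-1.12) and TXNRD1 (-0.71). TXNIP, an inhibitor of thioredoxin, was below as well (-2.05). Stress, growth factor and inflammatory genes below in Hep3B were BIRC3 (-2.5), FOS (-2.41), EGR1 (-1.56), LIF (-1.49), OAS3 (-1.26) and SPRY4 (-0.77). Liver proteins and enzymes below in Hep3B were IGFBP1 (-2.54), SERPINC1 (-2.19), CPS1 (-1.85), ETNPPL (-1.67), ITIH1 (-1.09), SERPINA1 (-1.04), SERPINA10 (-0.93), FGG (-0.67), GC (-0.67), KRT18 (-0.63), AHSG (-0.61) and GOT1 (-0.51). Liver genes above in Hep3B were TDO2 (2.96), NR1H4 (1.99), SULT1E1 (1.44), SLC16A12 (1.04), ONECUT2 (0.62) and MAT1A (0.56). Surface, matrix and other genes above in Hep3B were ADAM28 (2.93), CA9 (2.3), SCN7A (2.28), AUTS2 (1.99), THBS4 (1.86), PKI55 (1.76), COL12A1 (1.74), BGN (1.73), FHOD3 (1.7), SLC16A12 (1.04), LRP2 (0.82), ANXA4 (0.8), LYZ (0.61) and COL14A1 (0.6). Imprinted, neural, surface and other genes below in Hep3B were ARHGEF4 (-4.64), CDH17 (-2.9), LUM (-2.83), RASA4CP (-2.72), GAL (-2.32), STKLD1 (-1.97), GTSF1 (-1.89), PEG10 (-1.82), IGSF1 (-1.8), FST (-1.7), LFNG (-1.61), DLK1 (-0.77) and FGD4 (-0.54). In the Huh7 libraries ARHGEF4 had at most 0.208 CPM, CA9 at most 0.443 CPM, RASA4CP at most 0.754 CPM and SCN7A at most 1.24 CPM. BIRC3 had 0.851 CPM in Huh7_control and 0.406 CPM in Huh7_sertraline. The line differences of all these genes rest on few Huh7 reads, and the sizes are not precise.

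For the genes with Hep3B above, a positive value is either a rise in Hep3B, as for TDO2, or a negative value in Huh7 beside one in Hep3B that did not pass the test, as for MKI67. With Hep3B below, a negative value can be a fall in Hep3B, as for CPS1. It can also be a rise in Hep3B smaller than that in Huh7, as for BIRC3, GC and FGD4. No other sample, file or column outside the comparisons was at hand, and no group held enough libraries to look for one that stood apart.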

How the results depend on the processing

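The 2335 genes changed in Hep3B became 1756 with DESeq2 size factors in edgeR, 2853 when scaled by total counts, 2100 with a stricter filter, 2264 with limma voom and 2814 in the model of all 8 libraries. They became 768 with DESeq2 (382 higher and 386 lower), 749 when both pairs had to reach 1.5-fold, and 0 without the sertraline block, with 1481 genes at an unadjusted p under 0.05. With no filter on low counts edgeR gave 0 among 27784 genes, with 3875 at an unadjusted p under 0.05, against 915 with its legacy method. A minimum of 10 reads in total gave 966. The legacy method without a filter, the minimum of 10 reads and a thinning of libraries to equal depth (1940) were chosen after seeing the data, and the cause of these shifts was not tested. Leaving out 1 Hep3B library leaves 1 complete pair, which alone gives the XL413 change in Hep3B. That pair is then assumed to vary like Huh7, the only source of residual spread. A call kept or lost there does not measure spread in Hep3B. The 1437 line differences became 746 with DESeq2, 517 with at least 10 reads, 0 with no filter (3596 at an unadjusted p under 0.05, and 1491 with the legacy method), 2187 at an adjusted p under 0.10, and 175 to 1871 with 1 library left out.

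Among the 158 Hep3B and 78 line results followed gene by gene, none past the threshold changed sign under the alternatives run. CDC7, LMNB1, MCM6 and TXNIP, none of them past it in Hep3B, did change sign in their Hep3B result. CDC7 was at -0.14 without sertraline or XL413_sertraline, against 0.06 with all 4 libraries. LMNB1 was at 0.07 with total counts and 0.13 to 0.15 without XL413 or control, against -0.05. MCM6 was at 0.07 with total counts and at 0.06 without XL413, against -0.05. TXNIP was at -0.10 without control and -0.12 without XL413, against 0.05. With DESeq2 54 of the 236 were no longer past the threshold, with total counts 16, and with no filter 220. The pairs by sertraline are the block of the test, and the labels give no replicate numbers to pair by. Depth limits genes under about 1 CPM, and the XL413 library was the shallowest, so small changes in it were the least detectable. With 1 library for each treatment, a culture effect and a drug effect cannot be told apart.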
